A study of Mus musculus with 45 samples.

Results

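Genes of protein folding in the endoplasmic reticulum (ER) and of the unfolded protein response were followed after vapor exposure in the nucleus accumbens (NAC), the ventral part of the striatum. The animals, adult males of the C57BL/6J strain, had breathed chronic intermittent ethanol (CIE) vapor or air alone (Ctrl). The set held 38 of the 18193 genes that had a probeset annotated with their symbol alone. Those 38 genes had 90 such probesets, and each gene was read from its probeset with the highest mean level over all arrays. By role there were 18 chaperones and folding enzymes, 7 genes of ER degradation, 6 genes of the Atf4 branch, 4 sensors and transducers, and 3 genes of entry, glycosylation and export. All 38 were measured, and no filter on low values was applied. Scfd1, Manf and Alg12 had been named at 8 h in an earlier analysis of the same arrays, so their values at 8 h are no independent support for a response of the set.

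Every mouse had repeated 4-day cycles in an inhalation chamber, 16 h on each day, separated by 7 days outside it. CIE mice breathed ethanol vapor (10 to 13 mg per l of air) after an injection of ethanol (1.6 g/kg), and all groups, Ctrl included, received pyrazole (1 mmol/kg), which inhibits alcohol dehydrogenase. Tissue came from 6 CIE and 6 Ctrl mice at 0 h after the final session, 5 CIE and 5 Ctrl mice at 8 h, 5 CIE and 6 Ctrl mice at 72 h, and 6 CIE and 6 Ctrl mice at 7 d. Each array carried RNA of 1 mouse, and n below counts arrays. Levels are the deposited log2 values, changes are differences of group means on that scale with limma's standard error (SE), and calls were made at a Benjamini-Hochberg adjusted p of at most 0.01 over 45037 probesets. The shares of all probesets given beside counts cover probesets of every level, while each gene was read at its brightest. They are therefore not a like-for-like share of genes. Since the tissue is a mixture, fewer cells of a type and less RNA per cell cannot be told apart.

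Proteins that enter the secretory pathway fold in the ER with the help of the Hsp70 chaperone BiP (Hspa5), its J-domain partners, lectin chaperones and disulfide isomerases. When unfolded protein accumulates, the sensors Ern1, Atf6 and Eif2ak3 raise chaperone transcription through Xbp1 and Atf6, speed the degradation of misfolded protein, and slow translation while favouring that of Atf4. The arrays report transcript levels only, and neither the splicing of Xbp1 nor the cleavage of Atf6 was measured.

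Markers of the striatum fitted the tissue label. Penk, Tac1 and Drd1 measured 13.3 to 13.9, 12.8 to 13.2 and 12.1 to 12.9 over the groups' arrays. The mean level of 7 cortical pyramidal markers ranged between 6.30 and 9.69 over arrays, with the highest values in CIE 0 h, and Ttr, a choroid plexus marker, between 4.66 and 10.5. Array medians lay between 6.94 and 6.96, and the number of arrays limits the precision.

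Promoter sequences are shown first, because some of the genes described below hold the same textbook element. RefSeq promoter windows (GRCm38.p6, 250 bases before to 50 after a start site) were found for 34 of the 38 genes. Windows were searched on both strands for the ER stress response element, CCAAT and CCACG with 9 bases between them, which is bound in mammals by NF-Y and Atf6. It was present in 9 of 34 genes (26.5%), against 37 of the 27025 genes of the whole table (0.137%). The 10 matches follow, each read 5′ to 3′ on the strand of the motif with its conserved ends in capitals.
Hspa5: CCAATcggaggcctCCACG
Hsp90b1, distal: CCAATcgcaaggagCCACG
Hsp90b1, proximal: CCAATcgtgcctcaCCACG
Calr: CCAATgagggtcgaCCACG
Canx: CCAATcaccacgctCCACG
Pdia6: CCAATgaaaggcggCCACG
Dnajc3: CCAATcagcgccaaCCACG
Creld2: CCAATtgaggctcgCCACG
Alg12: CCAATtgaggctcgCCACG
Syvn1: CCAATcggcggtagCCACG

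The Creld2 and Alg12 lines are 1 genomic element read from both sides. Creld2 (chromosome 15, 88819646 to 88826681, plus strand) and Alg12 (chromosome 15, 88805243 to 88819318, minus strand) start head to head with 327 bases between them. The Hspa5 match lay at bases -65 to -47 from the start, that of Syvn1 at -44 to -26, and that of Calr at -162 to -144. Hspa5 (chr2:34771840-34772139, plus strand) and Creld2 (chr15:88819396-88819695, plus strand) are given as whole windows, with the ends of the element in capitals. In Creld2 the element runs on the opposite strand, so its ends read as their reverse complements.
Hspa5: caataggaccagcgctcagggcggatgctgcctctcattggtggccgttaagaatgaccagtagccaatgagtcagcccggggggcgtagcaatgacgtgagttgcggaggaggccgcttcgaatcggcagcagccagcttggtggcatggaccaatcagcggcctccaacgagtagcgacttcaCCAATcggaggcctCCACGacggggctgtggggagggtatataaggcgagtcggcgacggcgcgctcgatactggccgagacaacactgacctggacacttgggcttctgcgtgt
Creld2: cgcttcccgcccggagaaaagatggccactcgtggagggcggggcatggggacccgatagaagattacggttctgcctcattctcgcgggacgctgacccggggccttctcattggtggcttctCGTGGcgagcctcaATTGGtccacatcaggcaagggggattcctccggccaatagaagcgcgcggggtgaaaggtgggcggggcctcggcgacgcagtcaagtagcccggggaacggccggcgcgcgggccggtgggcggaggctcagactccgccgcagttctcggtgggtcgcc

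A shorter form of the element, ATTGG and CCACG with 1 base between them, was found in Dnajb11 and Herpud1, 2 of 34 genes (5.88%) against 12 of 27025 genes (0.0444%). The letters TGACGTGG, the unfolded protein response element, were found in Scfd1 and Txndc5 (5.88% of 34 genes, against 0.714% of all genes). The core of the amino acid response element read by Atf4, TGATGNAA, was found in Asns, Chac1, Cnpy2, Herpud1, Trib3 and Txndc5 (17.6% of genes, against 4.51% of all genes). Herpud1 (chr8:94386179-94386478, plus strand) held both the short element and the Atf4 core, and is printed with both in capitals, the core as its reverse complement. The window of Sdf2l1 (chr16:17132334-17132633, minus strand), the gene with the largest change over time, held none of the 4 motifs, which says only that these letters are not in this window.
Herpud1: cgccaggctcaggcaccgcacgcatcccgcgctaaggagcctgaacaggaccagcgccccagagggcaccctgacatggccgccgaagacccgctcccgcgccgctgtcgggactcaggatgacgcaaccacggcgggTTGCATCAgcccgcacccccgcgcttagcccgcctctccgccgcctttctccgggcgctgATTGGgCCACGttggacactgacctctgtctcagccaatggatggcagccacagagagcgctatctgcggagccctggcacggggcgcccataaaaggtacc
Sdf2l1: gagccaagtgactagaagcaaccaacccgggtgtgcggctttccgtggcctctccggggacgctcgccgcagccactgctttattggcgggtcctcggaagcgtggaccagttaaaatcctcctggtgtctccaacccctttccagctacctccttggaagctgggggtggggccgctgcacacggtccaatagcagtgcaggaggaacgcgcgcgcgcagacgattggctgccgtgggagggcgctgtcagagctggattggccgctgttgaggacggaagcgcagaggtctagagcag

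Early withdrawal was examined 8 h after the last session. Levels of 36 of the 38 genes, and of 18 of 18 chaperones, were higher in CIE than in Ctrl mice, by a median of 0.14 over the chaperones, against 0.00 over all genes. Manf and Scfd1 passed the test, 2 of 38 genes, where 0.0622% of all probesets passed in this comparison. Both had been named at 8 h from the same arrays, and the members were chosen with earlier results known. The counts of this paragraph are therefore description and no independent support for a response of the set. At an adjusted p of at most 0.05 Herpud1 passed as well, against 0.224% of probesets. At an unadjusted p under 0.05, 13 of 38 genes were higher and 0 were lower, against 3.88% of probesets that were higher.

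**Figure D1:**
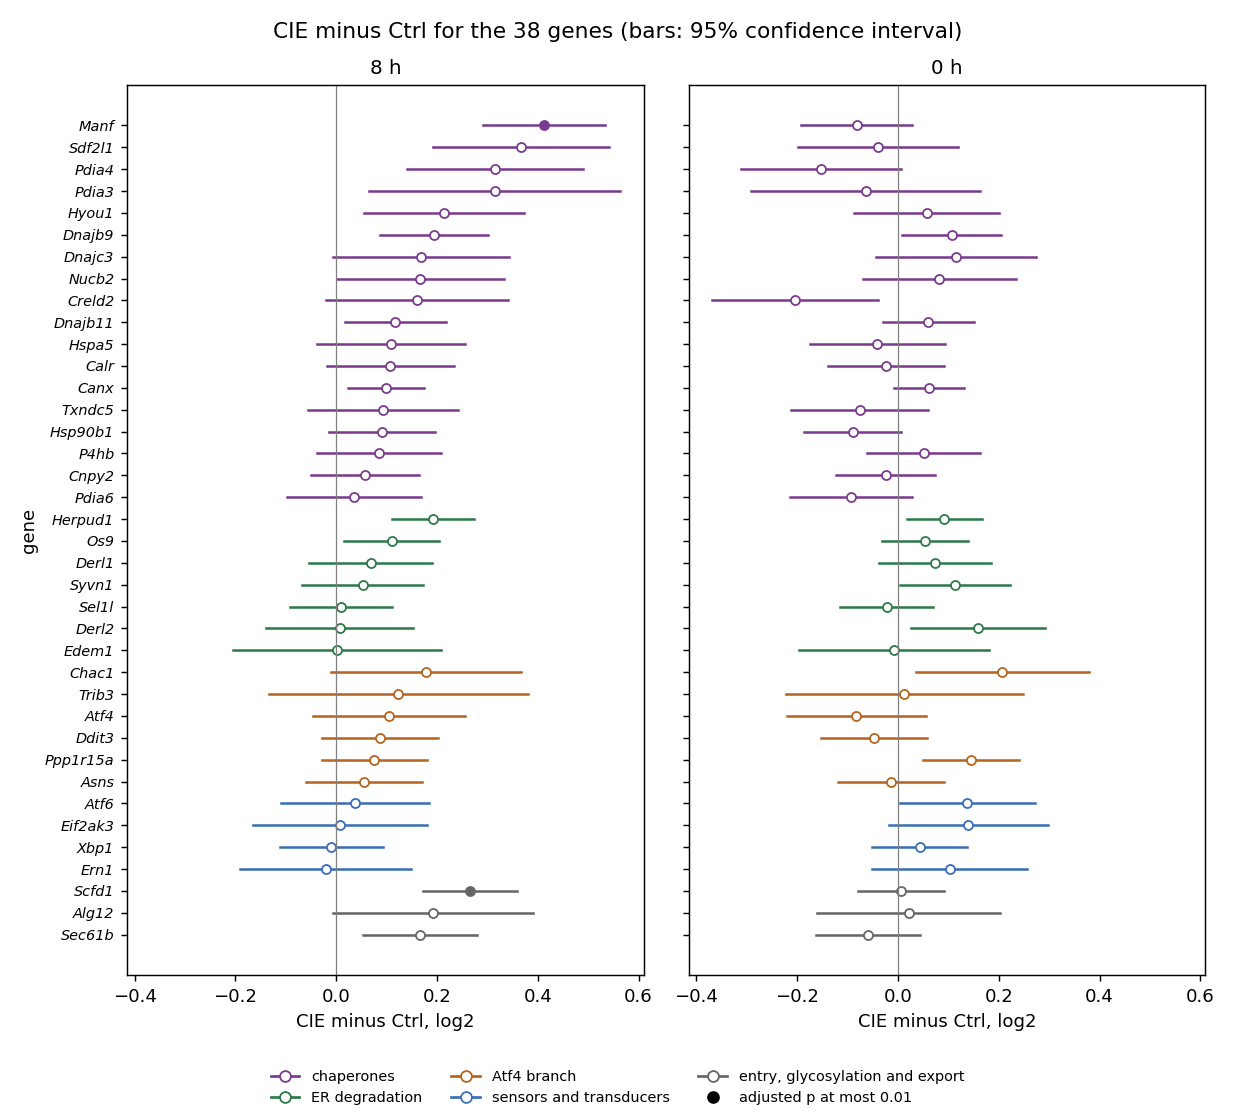
Change in each of the 38 genes, CIE minus Ctrl on the log2 scale, at 8 h (left) and 0 h (right), with 95% confidence intervals from limma. Colors mark the 5 lists and filled points an adjusted p of at most 0.01, reached by Manf and Scfd1 at 8 h and by no gene at 0 h.

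Manf (chromosome 9, 106888753 to 106891938) encodes an ER-resident and secreted protein that binds BiP. Its levels at 8 h were 11.09, 11.13, 11.02, 11.04 and 11.11 on the CIE arrays, against 10.56, 10.71, 10.62, 10.65 and 10.77 on the Ctrl arrays. The lowest CIE array stood above the highest Ctrl array. The mean was 11.08 ± 0.05 in CIE and 10.66 ± 0.08 in Ctrl mice (SD, n = 5 each), a change of 0.41 ± 0.06 (SE, 1.33-fold, adjusted p = 0.000112). Hybridization sets are not given by the labels and were inferred from exactly equal values between arrays. CIE was higher in 5 of 5 inferred sets that held both groups, by 0.33 to 0.52. The chaperones as a list did not move alike in all 5: 15 to 17 of 18 were higher in CIE in 4 of the sets, and in the other set 9 of 18 were higher and 9 were lower.

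Sdf2l1 (chromosome 16, 17130138 to 17132383) encodes a partner of the J-domain protein Dnajb11. It measured 9.11, 9.22, 9.10, 9.12 and 8.98 in CIE, against 8.71, 8.73, 8.53, 8.80 and 8.92 in Ctrl mice at 8 h. The groups did not overlap, but the change of 0.37 ± 0.09 missed the threshold (adjusted p = 0.0526). The disulfide isomerase Pdia4 measured 9.72, 9.74, 9.70, 9.70 and 9.46 in CIE, against 9.31, 9.25, 9.24, 9.40 and 9.53 in Ctrl mice. One CIE array lay within the Ctrl range, and the change was 0.32 ± 0.09 (adjusted p = 0.124). Pdia3, an isomerase that works with the lectin chaperones, measured 11.61, 11.51, 11.50, 11.65 and 11.40 in CIE, against 11.18, 11, 11.33, 11.23 and 11.36 in Ctrl mice. Its groups stood apart as well, by a change of 0.31 ± 0.12 (adjusted p = 0.457). For how many of all probesets the groups stand apart was not counted. A lack of overlap is therefore description only, here and elsewhere, and the call rests on the adjusted p.

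The remaining 14 chaperones changed by 0.04 to 0.21, and none of them passed. Hyou1, which exchanges the nucleotide on BiP, measured 10.07, 10.26, 10.20, 10.20 and 10.09 in CIE, against 9.87, 9.88, 10.02, 9.97 and 10.01 in Ctrl mice, with no overlap (0.21 ± 0.08, adjusted p = 0.386). Dnajb9, a J-domain protein, measured 11.77, 11.90, 11.75, 11.80 and 11.82 in CIE, against 11.60, 11.62, 11.53, 11.60 and 11.71 in Ctrl mice, again with no overlap (0.19 ± 0.05, adjusted p = 0.128). Hspa5 itself overlapped between groups, at 12.28, 12.67, 12.60, 12.59 and 12.47 in CIE, against 12.36, 12.39, 12.33, 12.44 and 12.55 in Ctrl mice, and its interval ran between -0.04 and 0.26. Pdia6, an isomerase, had the smallest change of the list, 0.04, with an interval between -0.10 and 0.17. The windows of Hspa5 and Pdia6 hold the ER stress response element, and so do those of Creld2, Dnajc3, Canx, Calr and Hsp90b1. Those of Sdf2l1, Pdia3, Pdia4 and Dnajb9 do not. Among the carriers, Creld2 ranged over 8.89 to 8.98 in CIE, against 8.61 to 8.85 in Ctrl mice, and Dnajc3 averaged 10.45 and 10.28. Whether the element goes with the change at 8 h was not tested.

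**Figure D2:**
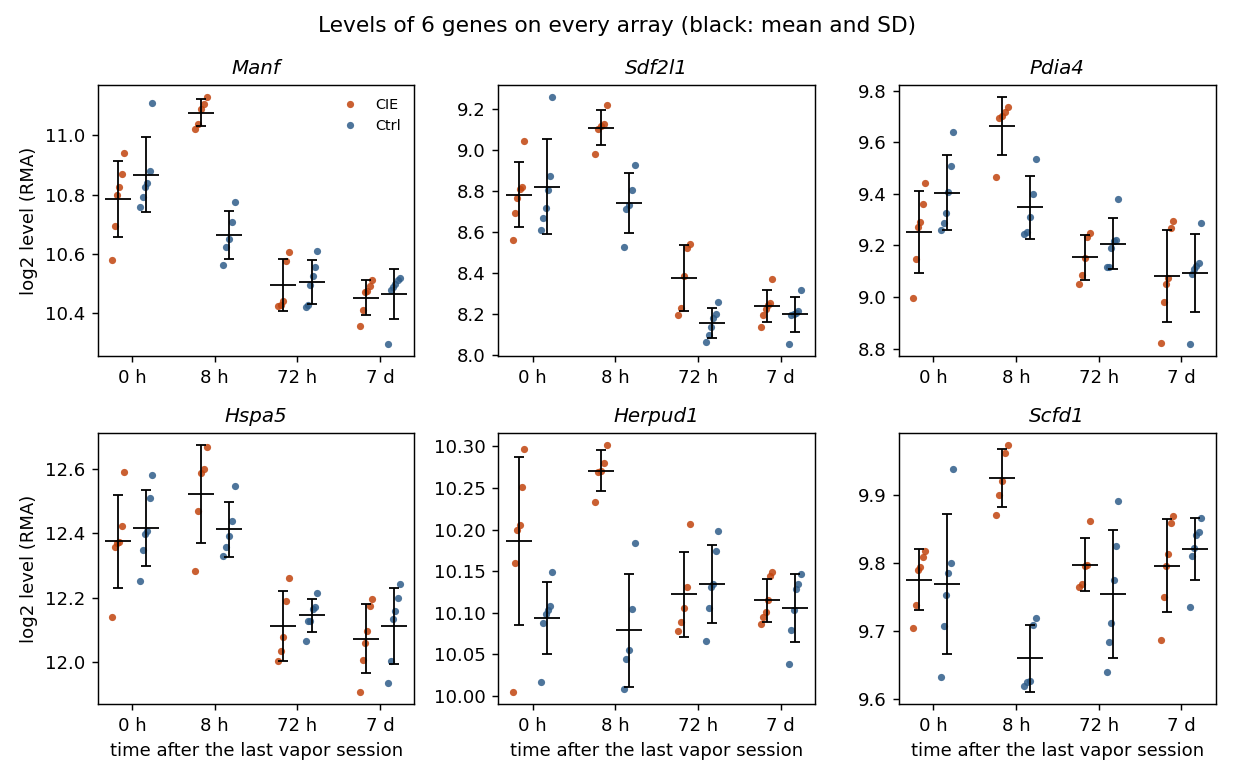
Log2 levels of Manf, Sdf2l1, Pdia4, Hspa5, Herpud1 and Scfd1 on every array at each time after the last session, CIE left of Ctrl, with black lines at the mean and SD. At 8 h the 5 CIE arrays of Manf, Sdf2l1, Herpud1 and Scfd1 lie above all Ctrl arrays, and at 72 h and 7 d Manf, Sdf2l1 and Hspa5 lie lower in both groups than at 0 h on average.

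In the ER degradation list 7 of 7 genes had a positive change at 8 h, with a median of 0.05, and 0 passed at 0.01. Herpud1, a scaffold of the ligase complex that ubiquitinates misfolded protein, measured 10.28, 10.23, 10.27, 10.30 and 10.27 in CIE, against 10.01, 10.05, 10.04, 10.10 and 10.18 in Ctrl mice. The groups did not overlap, and the change was 0.19 ± 0.04 (adjusted p = 0.0229). The lectin Os9 followed with 0.11 ± 0.05 (adjusted p = 0.533) and Derl1, part of the export channel, with 0.07 ± 0.06 (adjusted p = 0.911). Syvn1 and Sel1l, the ligase and its partner, changed by 0.05 and 0.01, and Edem1, which recognises trimmed mannose chains, by 0.00.

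In the Atf4 branch 6 of 6 changes at 8 h were positive, by 0.06 to 0.18, and 0 genes passed. Chac1, a glutathione-degrading enzyme induced by Atf4, measured 8.26, 8.34, 8.00, 8.20 and 7.98 in CIE, against 8.01, 8.00, 7.99, 7.85 and 8.03 in Ctrl mice. Its groups overlapped (0.18 ± 0.09, adjusted p = 0.700). The pseudokinase Trib3 changed by 0.12 ± 0.13 (adjusted p = 0.935) and Atf4 itself by 0.11 ± 0.07 (adjusted p = 0.852). The sensors and transducers had the smallest changes, between -0.02 for Ern1 and 0.04 for Atf6, with adjusted p of 0.993 and 0.977, and Xbp1 changed by -0.01 ± 0.05 (adjusted p = 0.995).

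Scfd1 (chromosome 12, 51377513 to 51450104), which acts in vesicle fusion between ER and Golgi, measured 9.90, 9.87, 9.92, 9.96 and 9.97 in CIE, against 9.63, 9.71, 9.72, 9.63 and 9.62 in Ctrl mice at 8 h. The groups stood apart, with a change of 0.27 ± 0.05 (1.20-fold, adjusted p = 0.00274). Its other probesets changed by 0.02 and -0.14, and the mean over all its probesets changed by 0.05 (adjusted p = 0.937), so the call rests on 1 probeset. The call was also lost on leaving out any of 5 single arrays, CIE replicates 25 and 51 and Ctrl replicates 4, 50 and 79, with adjusted p of up to 0.0148. Sec61b, a subunit of the translocon, measured 11.33, 11.41, 11.27, 11.18 and 11.29 in CIE, against 11.18, 11.16, 11.17, 11.06 and 11.09 in Ctrl mice (0.17 ± 0.06, adjusted p = 0.304). Alg12, a mannosyltransferase of glycan assembly, changed by 0.19 ± 0.10 at its brightest probeset (adjusted p = 0.691), while a dimmer one passed at 0.35 ± 0.07 (adjusted p = 0.00820).

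With the spread estimated from the 10 arrays of 8 h alone, 0 of the 38 genes passed, and Manf had an adjusted p of 0.0207. Beside these changes, 7 of 7 cortical pyramidal markers were higher in CIE mice at 8 h by a median of 0.20, with list means of 7.33 to 9.05 in CIE and 6.72 to 8.96 in Ctrl mice. Choroid plexus markers were higher in 5 of 6, by a median of 0.11, with list means of 6.21 to 6.89 in CIE and 6.18 to 6.75 in Ctrl mice. No marker of either list passed. Microglia markers were higher in 6 of 9 cases with a median of 0.10, and 1 of the 9, Fcrls, passed and was lower in CIE mice (-0.83 ± 0.12, adjusted p = 0.000107). The part of these markers in the changes at 8 h was not tested beyond the following fit. With the cortical and oligodendrocyte means as covariates, Manf changed by 0.41 (adjusted p = 0.000167) and Scfd1 by 0.27 (adjusted p = 0.00186). This fit was chosen after seeing the data. It leaves out the microglia, choroid plexus and astrocyte lists, so it cannot decide their part. Oligodendrocyte markers differed by a median of 0.04 at 8 h. Astrocyte markers were higher in 6 of 9 cases (median 0.03), with a mean centred level of 0.20 in CIE and 0.08 in Ctrl mice.

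At 0 h, the end of the last exposure, 0 of the 38 genes passed at the brightest probeset, where 1.59% of all probesets did. At an unadjusted p under 0.05, 7 of 38 were higher and 1 was lower, against 16.5% of probesets in either direction. Changes lay between -0.20 for Creld2, an ER stress-induced calcium-binding protein, and 0.21 for Chac1. Chaperones were on balance not higher, with 7 positive and 11 negative changes. Creld2 ranged over 8.37 to 8.84 in CIE with a median of 8.53, against 8.56 to 9.07 with a median of 8.78 in Ctrl mice (-0.20 ± 0.08, adjusted p = 0.167). Pdia4 changed by -0.15 ± 0.08 (adjusted p = 0.328) and the J-domain protein Dnajc3 by 0.12 ± 0.08 (adjusted p = 0.505). Markers differed at 0 h as well. Medium spiny neuron markers were lower in CIE mice in 10 of 10 cases (median -0.23). Microglia markers were lower in 8 of 9 (-0.18), and 2 of them passed. Cortical pyramidal markers were higher in 6 of 7 (0.52). The part of these markers in the values at 0 h was not tested.

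In the other lists at 0 h, Ppp1r15a, the phosphatase subunit that reverses the translational block, came closest with 0.14 ± 0.05 (adjusted p = 0.0766). It ranged over 8.41 to 8.63 in CIE with a median of 8.52, against 8.24 to 8.48 with a median of 8.40 in Ctrl mice, so the ranges overlapped. Chac1 changed by 0.21 ± 0.09 (adjusted p = 0.186) and Atf4 by -0.08 ± 0.07 (adjusted p = 0.607). In ER degradation Derl2, Syvn1 and Herpud1 changed by 0.16 ± 0.07, 0.11 ± 0.05 and 0.09 ± 0.04 (adjusted p = 0.189, 0.277 and 0.169). A secondary probeset of Sel1l passed at 0.24 ± 0.05 (adjusted p = 0.00466), although the brightest changed by -0.02. The sensors Eif2ak3, Atf6 and Ern1 changed by 0.14, 0.14 and 0.10 (adjusted p = 0.382, 0.288 and 0.555). Sec61b, Alg12 and Scfd1 changed by -0.06, 0.02 and 0.01 (adjusted p = 0.629, 0.949 and 0.972).

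The difference between the CIE effect at 8 h and that at 0 h was itself tested, and 0 of the 38 genes passed, as did 0% of all probesets, while 8 of 38 reached an unadjusted p under 0.05, against 5.51% of probesets. At 0.05 after adjustment, 0.0155% of probesets passed, and Manf was among them with a difference of 0.49 ± 0.08 (adjusted p = 0.0131). The 18 chaperones had positive differences in 18 of 18 cases, with a median of 0.14, against a median of -0.01 over all genes. The contrast holds the same arrays of 8 h, so its counts are description and no independent support for a response of the set. Pdia4 and Sdf2l1 had differences of 0.47 ± 0.12 and 0.41 ± 0.12 (adjusted p = 0.189 and 0.378), and Scfd1 one of 0.26 ± 0.06 (adjusted p = 0.148). Sensors and transducers had negative differences in 4 of 4 cases, of -0.13 to -0.05. Markers moved in the same contrast: medium spiny neuron markers had positive differences in 10 of 10 cases (median 0.18), microglia markers in 9 of 9 (median 0.35) and oligodendrocyte markers in 8 of 8 (median 0.15), and their part in these differences was not tested.

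At 72 h and 7 d no gene of the set passed limma's test between CIE and Ctrl mice. Of the 38 genes 0 passed at each time, and 0% of all probesets passed at 72 h and 0% at 7 d. An unadjusted p under 0.05 was reached by 1 of 38 genes at 72 h, Sdf2l1, against 7.2% of probesets, and by 1 of 38 at 7 d, Ppp1r15a, against 2.34%. Sdf2l1 stood highest in 2 CIE mice, with 8.52, 8.23, 8.20, 8.54 and 8.39 in CIE mice. In Ctrl mice it ranged over 8.06 to 8.26 with a median of 8.16, overlapping the lower CIE arrays (0.22 ± 0.08, adjusted p = 0.673). Creld2 and Dnajc3 changed by 0.10 and 0.06 (adjusted p = 0.827 and 0.887), Derl2, Derl1 and Syvn1 by 0.10, -0.09 and -0.04 (adjusted p = 0.784, 0.762 and 0.884), and Asns, Trib3 and Chac1 by 0.06, 0.05 and 0.05 (adjusted p = 0.816, 0.940 and 0.922). Atf6, Eif2ak3 and Ern1 changed by 0.12, 0.11 and -0.02 (adjusted p = 0.724, 0.790 and 0.973), and Alg12, Sec61b and Scfd1 by 0.16, 0.09 and 0.04 (adjusted p = 0.734, 0.743 and 0.851).

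At 7 d changes were between -0.12 for Ppp1r15a and 0.09 for Atf4, with adjusted p that all rounded to 1. Ppp1r15a ranged over 8.29 to 8.38 in CIE with a median of 8.32, against 8.33 to 8.57 with a median of 8.43 in Ctrl mice (-0.12 ± 0.05). Among the chaperones, changes at 7 d included 0.09 for Pdia3, -0.07 for Hyou1 and -0.07 for Txndc5, a disulfide isomerase. Derl1, Syvn1 and Os9 changed by -0.06, -0.05 and -0.05, Asns by 0.08, Ern1, Xbp1 and Eif2ak3 by 0.06, -0.05 and 0.04, and Alg12, Scfd1 and Sec61b by -0.03, -0.02 and -0.01. For Manf the interval of the CIE change ran between -0.12 and 0.11 at 72 h, and between -0.12 and 0.10 at 7 d.

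The CIE effects at 72 h and at 7 d were also set against that at 0 h. Of the 38 genes 0 passed in each, where 0.0755% of probesets passed at 72 h and 0.2% at 7 d. At 0.05, 0.755% of probesets passed at 7 d, among them Ppp1r15a (-0.27 ± 0.07, adjusted p = 0.0423), which was higher in CIE than in Ctrl mice by 0.14 at 0 h and lower by 0.12 at 7 d.

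**Figure D3:**
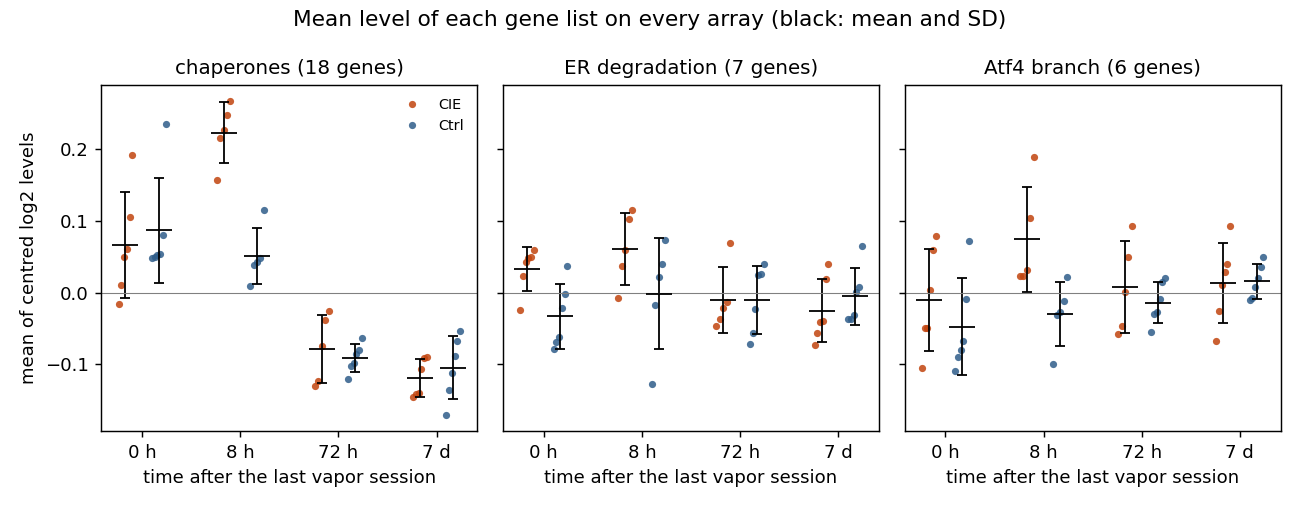
Mean over the genes of a list, each centred on its own mean over 45 arrays, for chaperones, ER degradation and the Atf4 branch on every array at each time, CIE left of Ctrl, with black lines at the mean and SD. At 8 h the 5 CIE arrays lie at 0.157 to 0.268 for chaperones and the Ctrl arrays at 0.00938 to 0.115. Both groups lie below 0 at 72 h and 7 d for chaperones only.

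As a description of the whole list, the mean of the 18 centred chaperone levels lay between 0.157 and 0.268 on CIE arrays at 8 h, against 0.00938 and 0.115 on Ctrl arrays, without overlap. At 0 h it lay between -0.0163 and 0.192 in CIE and 0.048 and 0.235 in Ctrl mice. At 72 h the ranges were -0.131 to -0.0253 in CIE and -0.12 to -0.0635 in Ctrl mice, and at 7 d -0.146 to -0.0898 in CIE and -0.172 to -0.0535 in Ctrl mice. Thus the arrays of 0 h and 8 h of both treatments, except 1 CIE array at 0 h, stood above 0 and those of 72 h and 7 d below it. ER degradation means crossed 0 in all 8 groups, between -0.128 and 0.115. Atf4 branch means lay between 0.0226 and 0.189 on CIE arrays at 8 h, against -0.0999 and 0.022 on Ctrl arrays, so these groups did not overlap either, by a margin under the third decimal, and they crossed 0 in the other 7 groups.

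Change over time in Ctrl mice, which never received ethanol, was tested next. Between 8 h and 0 h, 0 of 38 genes passed, as did 0% of all probesets. At an unadjusted p under 0.05, 1 gene was higher and 4 were lower, against 5.03% of probesets in either direction. Among the chaperones Manf had the largest change (-0.20 ± 0.06, adjusted p = 0.552), followed by the calcium-binding protein Nucb2 (-0.17 ± 0.08, adjusted p = 0.945) and Txndc5 (-0.12 ± 0.07, adjusted p = 0.945). In the other lists Sel1l, Edem1 and Derl2 changed by 0.11, 0.11 and 0.09, Chac1, Ddit3 and Asns by 0.11, 0.09 and -0.07, Atf6, Eif2ak3 and Ern1 by 0.12, 0.11 and 0.04, and Scfd1, Sec61b and Alg12 by -0.11, -0.11 and 0.02, with adjusted p of 0.945 and above.

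By 72 h most chaperone levels were lower in Ctrl mice than at 0 h. Of 18 chaperones 16 had a negative change, with a median of -0.16, against -0.01 over all genes. Sdf2l1 and Manf fell, 2 of 38 genes, against 0.0488% of probesets called. At an unadjusted p under 0.05, 11 of 38 genes were lower and 0 higher, against 2.16% of probesets that were lower, and 10 of the 11 were chaperones. Sdf2l1 ranged over 8.06 to 8.26 at 72 h with a median of 8.16, against 8.61 to 9.25 with a median of 8.76 at 0 h. The ranges were far apart, and the gene fell by 0.66 on the log2 scale (SE 0.08, 0.632 of its level at 0 h, adjusted p = 4.84e-06).

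Manf ranged over 10.42 to 10.61 in Ctrl mice at 72 h with a median of 10.51, against 10.76 to 11.11 with a median of 10.83 at 0 h, and the ranges did not meet (-0.36 ± 0.05, adjusted p = 0.000311). Hspa5 ranged over 12.06 to 12.22 at 72 h, against 12.25 to 12.58 at 0 h, again apart, with a change of -0.27 ± 0.07 that did not pass (adjusted p = 0.136). Pdia6 and Pdia3 changed by -0.27 ± 0.06 and -0.31 ± 0.11 (adjusted p = 0.0556 and 0.695). Outside the chaperones the largest change was that of Sec61b (-0.18 ± 0.05, adjusted p = 0.346). ER degradation genes changed by -0.03 to 0.10, with Derl1, Edem1 and Herpud1 at 0.10, 0.08 and 0.04, and the Atf4 branch by -0.04 to 0.13, with Chac1, Ddit3 and Ppp1r15a at 0.13, 0.09 and 0.05. Xbp1, Ern1 and Eif2ak3 changed by -0.06, 0.03 and 0.03, and Alg12 and Scfd1 by -0.03 and -0.02, with adjusted p between 0.956 and 1 for all of these.

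**Figure D4:**
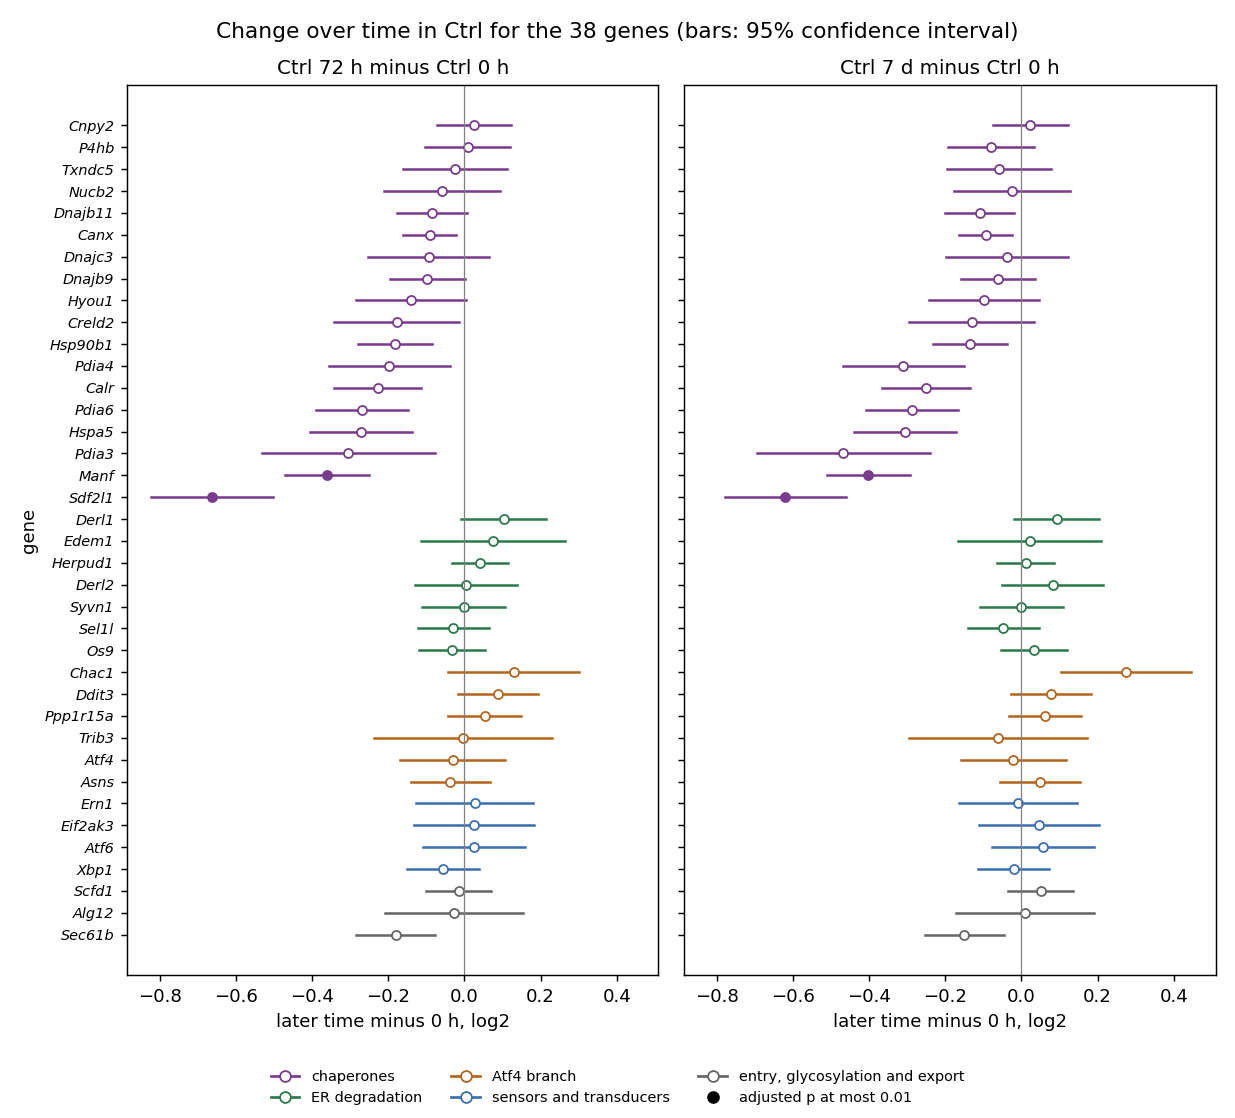
Change in each of the 38 genes in Ctrl mice, 72 h minus 0 h (left) and 7 d minus 0 h (right) on the log2 scale, with 95% confidence intervals from limma and colors for the 5 lists. Filled points, Sdf2l1 and Manf at both times, have an adjusted p of at most 0.01, and 16 and 17 of 18 chaperones lie left of 0.

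At 7 d the lower levels were still present in Ctrl mice. Of 18 chaperones 17 had a negative change from 0 h, with a median of -0.12, against 0.02 over all genes. Again 2 of 38 genes fell, Sdf2l1 (-0.62 ± 0.08, adjusted p = 6.26e-06) and Manf (-0.40 ± 0.05, adjusted p = 1.74e-05), against 0.0799% of probesets called. At 0.05 Hspa5 (-0.31 ± 0.07, adjusted p = 0.0347) and Pdia6 (-0.29 ± 0.06, adjusted p = 0.022) passed too, against 0.138% of probesets. At an unadjusted p under 0.05, 11 of 38 genes were lower, 10 of them chaperones, against 2.28% of probesets that were lower.

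Sdf2l1 ranged over 8.06 to 8.32 in Ctrl mice at 7 d with a median of 8.20, below every array of 0 h. Manf ranged over 10.30 to 10.52 with a median of 10.49, also below every array of 0 h. Hspa5 ranged over 11.93 to 12.24, just short of the lowest array at 0 h, 12.25. Pdia3 and Pdia4 changed by -0.47 ± 0.11 and -0.31 ± 0.08 (adjusted p = 0.0876 and 0.128), with overlapping ranges. Calr, the soluble lectin chaperone, changed by -0.25 ± 0.06 at its brightest probeset (adjusted p = 0.0508), and a secondary probeset passed at -0.27 ± 0.05 (adjusted p = 0.00572).

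In the other lists the median changes in Ctrl mice at 7 d lay between 0.01 and 0.06. ER degradation had a median change of 0.02, with Derl1, Derl2 and Sel1l at 0.09, 0.08 and -0.05 (adjusted p = 0.907, 0.917 and 0.922). The Atf4 branch had a median of 0.06, with Chac1, Ddit3 and Trib3 at 0.27, 0.08 and -0.06 (adjusted p = 0.373, 0.908 and 0.959). Atf6, Eif2ak3 and Xbp1 changed by 0.06, 0.05 and -0.02 (adjusted p = 0.929, 0.955 and 0.968), and Sec61b, Scfd1 and Alg12 by -0.15, 0.05 and 0.01 (adjusted p = 0.484, 0.921 and 0.994). Of these 20 genes 0 passed. At an unadjusted p under 0.05, 1 was lower, Sec61b, and 1 was higher, Chac1. The difference between lists was not tested, and lists this short give little power to see a decline.

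An F test over the 4 times in Ctrl mice called 5 of the 38 genes, against 0.233% of probesets, and all 5 were chaperones. They were Sdf2l1 (adjusted p = 5.47e-08), Manf (adjusted p = 2.68e-05), Pdia6 (adjusted p = 0.000483), Calr (adjusted p = 0.00111) and Hspa5 (adjusted p = 0.00538). At 0.05 Hsp90b1, the ER paralog of Hsp90, passed as well (adjusted p = 0.0351), against 0.426% of probesets. Pdia6, Calr, Hspa5 and Hsp90b1 carry the ER stress response element shown above, Sdf2l1 does not within its window, and no window was at hand for Manf. The other carriers, Canx, Dnajc3, Creld2, Alg12 and Syvn1, did not pass at 0.05. Whether the element goes with change over time was not tested. In the order of times Pdia6 averaged 10.48, 10.53, 10.21 and 10.19 in Ctrl mice, Calr 12.62, 12.69, 12.39 and 12.37, and Hspa5 12.42, 12.41, 12.14 and 12.11, each at 0 h, 8 h, 72 h and 7 d. All 3 were thus at similar levels at 0 h and 8 h, and lower at both later times.

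One Ctrl array at 0 h, replicate 48, was the highest of its group for Manf (11.11) and Sdf2l1 (9.25). Without it Sdf2l1 changed by -0.58 and Manf by -0.31 between 72 h and 0 h (adjusted p = 1.02e-05 and 0.00227), and the chaperone median was -0.11. Marker lists moved over the same interval. Oligodendrocyte markers were higher in 8 of 8 at 72 h by a median of 0.52, with list means of 11.9 to 12.7 at 72 h and 11.4 to 12.1 at 0 h, and cortical markers were lower in 7 of 7 by a median of -0.43, with list means of 6.89 to 8.09 at 72 h and 6.69 to 8.92 at 0 h. A fit with both means as covariates left out the other marker lists. In it Sdf2l1 changed by -0.68 and Manf by -0.35, and Hspa5 missed the F test (adjusted p = 0.0104). Hspa5 also missed it on leaving out any of 8 single Ctrl arrays, replicates 30 and 48 at 0 h, 50 and 79 at 8 h, 24 at 72 h, and 28, 36 and 62 at 7 d (adjusted p of up to 0.0165). With the spread taken from the compared arrays alone, the falls at 72 h and 7 d were not called for Sdf2l1 (adjusted p = 0.0305 and 0.0337) or Manf (adjusted p = 0.136 and 0.0605). All Ctrl mice received pyrazole and chamber handling up to the last session, and time since that session, pyrazole and handling cannot be told apart. Tissue at 8 h also came from another clock time than that of 0 h, 72 h and 7 d.

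CIE mice were described in the same way. Between 8 h and 0 h 2 of 38 genes rose, Manf (0.29 ± 0.06, adjusted p = 0.00256) and Pdia4 (0.41 ± 0.08, adjusted p = 0.00334), against 0.633% of probesets called. The same CIE arrays of 8 h enter here, so these counts too are description only. Pdia4 measured 9.46 to 9.74 at 8 h, against 9.0 to 9.44 at 0 h, without overlap. It has 2 probesets, and its change ran between 0.237 and 0.422 over 10 alternatives of the processing. At 0.05 Hsp90b1, Sdf2l1, Creld2 and Ddit3, the transcription factor CHOP, rose too, by 0.21, 0.33, 0.35 and 0.22, against 1.74% of probesets. A secondary probeset of Calr and 1 of Pdia3 also passed at 0.01, with changes of 0.25 and 0.32. Cell type markers moved over the same interval: microglia markers were higher at 8 h in 9 of 9 cases (median 0.33), oligodendrocyte markers in 8 of 8 (0.27), endothelial markers in 8 of 8 (0.20) and medium spiny neuron markers in 10 of 10 (0.13), while cortical pyramidal markers were lower in 7 of 7 (-0.33). None of them passed, and their part in the changes was not tested. The call of Pdia4 was lost on leaving out CIE 0 h replicate 26 or 72 or CIE 8 h replicate 1, 15, 23 or 25 (adjusted p of up to 0.0149), and that of Manf on leaving out CIE 0 h replicate 26 or 72 or CIE 8 h replicate 1 (up to 0.0112).

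Between 72 h and 0 h Sdf2l1 fell by 0.41 (adjusted p = 0.00205) and Manf by 0.29 (adjusted p = 0.00141) in CIE mice, 2 of 38 genes against 1.62% of probesets called. At 0.05 Hspa5, Canx and Calr fell too, against 3.84% of probesets. Secondary probesets of Dnajc3 and Sel1l passed with changes of -0.42 and -0.31. Between 7 d and 0 h 5 of 38 genes fell, against 1.5% of probesets called, and at 0.05 there were 9, against 3.32%. Of all 18193 genes at their brightest probeset, 377 were called, and 791 at 0.05. The 5 were Sdf2l1 (-0.54 ± 0.08, adjusted p = 1.69e-05), Manf (-0.33 ± 0.05, adjusted p = 0.000117), Hspa5 (-0.30 ± 0.07, adjusted p = 0.00433), Ppp1r15a (-0.21 ± 0.05, adjusted p = 0.00699) and Calr (-0.24 ± 0.06, adjusted p = 0.00967). Hspa5 ranged over 11.91 to 12.19 in CIE mice at 7 d, against 12.14 to 12.59 at 0 h, with a small overlap. Several of these calls rested on single arrays. Ppp1r15a and Calr each lost theirs on leaving out any of 9 of the 12 arrays (adjusted p of up to 0.0305 and 0.0414), Hspa5 on leaving out CIE 0 h replicate 5, 26 or 67 or CIE 7 d replicate 7 or 27 (up to 0.021), and Sdf2l1 at 72 h on leaving out CIE 72 h replicate 29 or 33 (up to 0.0133). The declines of Sdf2l1 and Manf between 0 h and the later times were therefore seen in CIE mice and in Ctrl mice, which are separate animals. Over the same intervals markers moved in CIE mice. At 72 h oligodendrocyte markers were higher than at 0 h in 8 of 8 cases (median 0.40), medium spiny neuron markers in 10 of 10 (0.21), microglia markers in 8 of 9 (0.31) and endothelial markers in 7 of 8 (0.17), while cortical pyramidal markers were lower in 7 of 7 (-0.35). At 7 d oligodendrocyte markers were higher in 8 of 8 cases (0.32) and microglia markers in 8 of 9 (0.13), while choroid plexus markers were lower in 6 of 6 (-0.18). At each time 2 microglia markers passed and were higher, Fcrls among them, by 1.42 each time. Endothelial markers passed and were higher too, 2 at 72 h and 1 at 7 d. Of 9 astrocyte markers 1 rose and 1 fell at each time, with median changes of 0.01 and 0.07. In the order of times the centred astrocyte mean was 0.04, 0.20, -0.06 and -0.07 in CIE mice. In Ctrl mice it was -0.01, 0.08, -0.02 and -0.12. The part of these markers in the changes was not tested.

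Genes of the same pathways outside the set were read from 4 further lists, 124 measured genes in all. At 8 h 0 of the 124 passed between CIE and Ctrl mice, where 0.0622% of all probesets passed. The median changes of the 4 lists were 0.03, 0.04, 0.03 and 0.03. At 0 h 4 of 124 rose, where 1.59% of all probesets passed. They were Cebpb, a transcription factor that pairs with Atf4 (0.58 ± 0.07, adjusted p = 2.27e-06), the degradation genes Erlin2 (0.33 ± 0.08, adjusted p = 0.00939) and Ube2g2 (0.29 ± 0.07, adjusted p = 0.00791), and Sec63, a translocon partner (0.16 ± 0.04, adjusted p = 0.00822). At 72 h and 7 d 0 of 124 passed, as did 0% of all probesets at each time. In Ctrl mice 0 of 124 passed between 72 h and 0 h or between 7 d and 0 h, where 0.0488% and 0.0799% of probesets passed. The F test over time called 1, Cbs, an enzyme of cysteine synthesis (adjusted p = 0.000440), against 0.233% of probesets. With shares this small, a count of 0 says little about these genes.

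In CIE mice 6 of the 33 genes of the Atf4-linked list fell between 72 h and 0 h, where 1.62% of all probesets passed. In the other further lists 0 of 38 folding and 0 of 21 degradation genes passed, and 1 of 32 entry and export genes rose. Of the 33, 24 had a negative change and 9 a positive one, with a median of -0.09. The 6 held the transcription factor Atf5 (-0.67 ± 0.12), Cebpb (-0.67 ± 0.08), Ddit4, an inhibitor of mTOR signaling (-0.79 ± 0.17), and the stress-induced Nupr1 (-0.78 ± 0.13), with adjusted p of 0.00289 and below. Between 7 d and 0 h Atf5, Cebpb, Ddit4, Nupr1 and Cbs fell, 5 of 33 genes where 1.5% of probesets passed. Over the 33 there were 19 negative and 14 positive changes with a median of -0.02. In the other further lists 1 of 21 degradation genes fell, and 0 of 38 folding and 0 of 32 entry and export genes passed. The difference between the CIE effect at 7 d and at 0 h passed for Cebpb (-0.71 ± 0.10, adjusted p = 0.000268). None of Atf4, Ddit3, Trib3, Chac1 and Asns passed in any CIE minus Ctrl comparison or in any comparison of later times with 0 h at 0.01.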

How the data were processed

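The deposited values were log2 RMA expression per probeset, made by the authors from Affymetrix mouse whole-genome arrays: RMA background correction and quantile normalization were run within batches, quantile normalization was repeated over all arrays, and ComBat adjusted for hybridization group. No RMA version was given. Between arrays, sorted values differed by at most 0.128. Symbols came from the platform annotation, with 34945 probesets of 1 symbol and 932 of several, and positions and promoters from RefSeq tables of GRCm38.p6.

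The model (limma 3.58.1, R 4.3.3) covered 45037 probesets and 45 arrays, with a mean for each of 8 groups and no covariate. Adjusted p values are Benjamini-Hochberg within a contrast, at 0.01 and also 0.05. The fit was run on simulated arrays with independent noise and known shifts at 8 h. That run did not cover shifts as small as most changes here, or probesets that vary together. Probesets whose names end in s_at or x_at can bind related transcripts, and some members are read from them. Genes that passed, and the 3 largest changes that did not in each list and contrast, were named. Members and lists were chosen with earlier results of these data known. Hybridization sets, used as a block in 1 alternative, were inferred from exactly equal values (6 sets of 6 to 8 arrays), and Ctrl 0 h replicate 20 belonged to none. Alternatives are given in the closing section.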

Additional observations from a re-analysis of the deposited data

Results flagged for a closer look

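Of 304 groups of a gene's log2 levels and 40 groups of list means, 19 and 3 held an array whose gap to the nearest other, relative to the group's range, passed Dixon's 95% critical value, and chance gives about 1 in 20. CIE 7 d replicate 13 was high for Creld2 (8.93638), Ddit3 (9.92575) and Nucb2 (9.40322). CIE 72 h replicate 63 was high for Ern1 (8.25345) and for the centred ER degradation mean (0.0693844), and low for Nucb2 (9.01821). Among single CIE arrays, Cnpy2 was high in 0 h replicate 67 (11.4174) and 8 h replicate 1 (11.515), and Pdia4 was low in 8 h replicate 51 (9.4649).

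Ctrl 0 h replicate 48 was high for Manf (11.1103) and for the centred chaperone mean (0.23474), and low for Asns (11.006). Ctrl 7 d replicate 62 was high for Dnajc3 (10.4325), Sel1l (11.5675) and the centred mean of sensors and transducers (0.160996), and low for Manf (10.2963). Among other Ctrl arrays, Atf6 was high in 0 h replicate 78 (10.3185), Sec61b in 0 h replicate 74 (11.3951) and Nucb2 in 72 h replicate 68 (9.29634). Xbp1 was low in 0 h replicate 20 (11.9669), Chac1 in 8 h replicate 50 (7.85308) and Canx in 72 h replicate 6 (12.2847).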

How the results depend on the processing

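Counts are of the 38 genes called by limma. With the spread estimated from the compared arrays only, 0 were called between CIE and Ctrl mice at 8 h, 0 in Ctrl mice at 72 h and 0 at 7 d against 0 h, and in CIE mice 0 at 8 h, 0 at 72 h and 1 at 7 d against 0 h. This setting uses fewer arrays. At an adjusted p of 0.05, 4 were called in Ctrl mice at 7 d, and in CIE mice 6 at 8 h, 5 at 72 h and 9 at 7 d. Array weights gave 4 in CIE mice at 8 h, as did keeping probesets above the median level (4), and hybridization sets as a block gave 3 in CIE mice at 7 d. The cause of these last 3 shifts was not tested.

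On leaving out 1 array at a time, the count ran between 1 and 2 for CIE against Ctrl at 8 h, between 0 and 5 for CIE mice at 8 h, between 1 and 3 at 72 h and between 2 and 4 at 7 d against 0 h. It stayed at 0 between CIE and Ctrl mice at 0 h, 72 h and 7 d. No called change turned its sign under any alternative. The chaperone median at 8 h ran between 0.126 and 0.163 over 10 alternatives, and that of Ctrl mice at 72 h between -0.177 and -0.142. Marker means as covariates and the alternatives for CIE over time were chosen after seeing the data. The labels give the groups no shared replicate numbers, so no block by replicate number was fitted. Arrays of different groups were paired through the inferred hybridization sets, whose use as a block left 2 of 38 genes called at 8 h. Groups of 5 or 6 arrays limit the precision.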
